A study of Mus musculus with 30 samples.

Results

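The 9 costimulatory receptor genes of T cells described here are Tnfrsf18 (encoding GITR), Tnfrsf4 (OX40), Tnfrsf9 (4-1BB), Cd28, Icos, Cd27, Cd40lg (CD40 ligand), Cd226 (DNAM-1) and Tnfrsf1b (TNFR2). They were chosen by name for this shared role and not by a measured value, though earlier results of these data were already known. Their rows were matched by identifier in 3 deposited tables. All 9 were found among the 55401 genes counted. A T cell responds fully only when engagement of its antigen receptor is joined by a costimulatory signal. CD28 and ICOS are immunoglobulin superfamily receptors that signal through phosphoinositide 3-kinase, whereas GITR, OX40, 4-1BB, CD27 and TNFR2 are TNF receptor superfamily members that recruit TRAF adaptors and activate NF-kB. CD40 ligand is itself a TNF family ligand that helper T cells present to B cells and dendritic cells, and DNAM-1 binds nectin family proteins on target cells. In mice, GITR, OX40, ICOS and TNFR2 are abundant on regulatory T cells, and 4-1BB appears on recently stimulated T cells.

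The 30 RNA-seq libraries came from mouse tumours of the mammary carcinoma line 4T1, which was marked with green fluorescent protein, and all were labelled wild-type. The groups named C269 came from mice given C269, an antibody against extracellular NAMPT (nicotinamide phosphoribosyltransferase, an NAD-producing enzyme that acts as a cytokine outside cells), 2 times each week over 1 month, with a dose of 2.5 mg/kg. Those named CTRL came from mice given control IgG1 instead. From these tumours, sorted 4T1-GFP cells (4T1), CD4+ T cells (CD4) and CD8+ T cells (CD8), both taken with magnetic beads, were each profiled as 5 C269 and 5 CTRL libraries. The study's title places the comparison in the T cell response to breast cancer and the PD-1 pathway when extracellular NAMPT is neutralised. Neither strain nor age is in the labels used here. Nor do they state that the 5 libraries of a group are 5 animals, and the p-values below therefore reflect no more than library-to-library spread.

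Levels are given in CPM, the counts of a gene divided by all gene counts of its library and scaled so that every library has the same total. Group values are means ± SD (n = 5). Libraries are called by the number of their column, 1 to 5 for 4T1 CTRL, 6 to 10 for 4T1 C269, 11 to 15 for CD4 CTRL, 16 to 20 for CD4 C269, 21 to 25 for CD8 CTRL and 26 to 30 for CD8 C269. Total counts ran from 2178682 to 5208420 per library, with the CD8 C269 libraries the shallowest group at 2178682 to 3352029. The labels of the T cell fractions matched their defining markers. Cd8a averaged 459.6 ± 138 CPM in CD8 C269 and 461.8 ± 102 CPM in CD8 CTRL. In CD4 libraries it averaged 25.6 ± 14.3 CPM in C269 and 14.97 ± 5.08 CPM in CTRL. Cd4 averaged 163 ± 27.4 CPM in CD4 C269 and 160.4 ± 50.3 CPM in CD4 CTRL, against 10.2 ± 9.91 CPM in CD8 C269 and 6.495 ± 4.36 CPM in CD8 CTRL. Summed over Cd3d, Cd3e, Cd3g and Cd247, the CD3 complex genes had 1614 ± 175 CPM in CD8 C269, 1546 ± 187 CPM in CD8 CTRL, 830.2 ± 168 CPM in CD4 C269 and 824 ± 213 CPM in CD4 CTRL. Macrophage and monocyte markers (Lyz2, Csf1r, Adgre1, C1qa and Cd68) summed to 995.9 ± 347 CPM in CD4 C269 and 1414 ± 851.5 CPM in CD4 CTRL. In CD8 libraries they summed to 828 ± 469 CPM in C269 and 956 ± 350 CPM in CTRL. Library 14 (CD4 CTRL) stood apart, with 71.3 CPM of Cd4, a CD3 sum of 449 CPM and a macrophage and monocyte sum of 2824 CPM. The part of these cells in the receptors' values was not tested. Libraries 9 and 10 (4T1 C269) also stood apart: their epithelial marker sums (Epcam, Krt8, Krt18 and Cdh1) were 3433 and 3618 CPM, against 195.3 to 1074 CPM in the other 4T1 libraries. Set against CD4 CTRL, these markers did not bear out the carcinoma label in 4T1 CTRL libraries. The epithelial sum of those libraries, 277.1 ± 145 CPM, lay close to the 256.1 ± 37.3 CPM of CD4 CTRL (0 of 4 genes called, median log2 difference 0.30). It lay above the 61.6 ± 21.5 CPM of CD8 CTRL (3 of 4 genes called higher, against 17.5% of all tested genes, median log2 difference 2.39). CD4 CTRL libraries were themselves above CD8 CTRL, with 2 of 4 genes called lower in CD8, against 5.25% of all tested genes. Libraries 6 and 7 of 4T1 C269, at 437 and 288 CPM, lay within the 249.6 to 569 CPM of CD4 C269. The same 4T1 CTRL libraries had neutrophil marker sums (S100a8, S100a9, Ly6g, Cxcr2 and Mmp8) of 9239 ± 4051 CPM, against 667.5 ± 111.2 CPM in CD4 CTRL, and erythroid sums (Hbb-bs, Hba-a1 and Alas2) of 153 to 19700 CPM. The name 4T1 below therefore stands for the sorted fraction. In bulk libraries such as these, fewer cells that carry a receptor and less of its RNA per cell cannot be told apart.

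The first question was how the receptors are distributed over the 2 T cell populations. The largest differences were in Tnfrsf4 and Cd40lg, both lower in CD8 than in CD4 libraries under either treatment, while Cd226 had its highest levels in CD8 libraries. Per kilobase of exon, the most abundant receptors of CD4 CTRL libraries were Tnfrsf4 (155 ± 37.1 CPM per kb), Icos (154 ± 51.4 CPM per kb) and Tnfrsf18 (141 ± 24.3 CPM per kb). In CD8 CTRL libraries they were Cd27 (94.1 ± 5.99 CPM per kb), Icos (92.7 ± 13.7 CPM per kb) and Tnfrsf18 (91.2 ± 21.4 CPM per kb), which lie within each other's spread. Cd226 was among the 2 lowest receptors per kb in both, at 9.38 ± 1.55 CPM per kb in CD8 CTRL and 2.83 ± 0.966 CPM per kb in CD4 CTRL. The plot of levels by library shows these distributions.

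**Figure D1:**
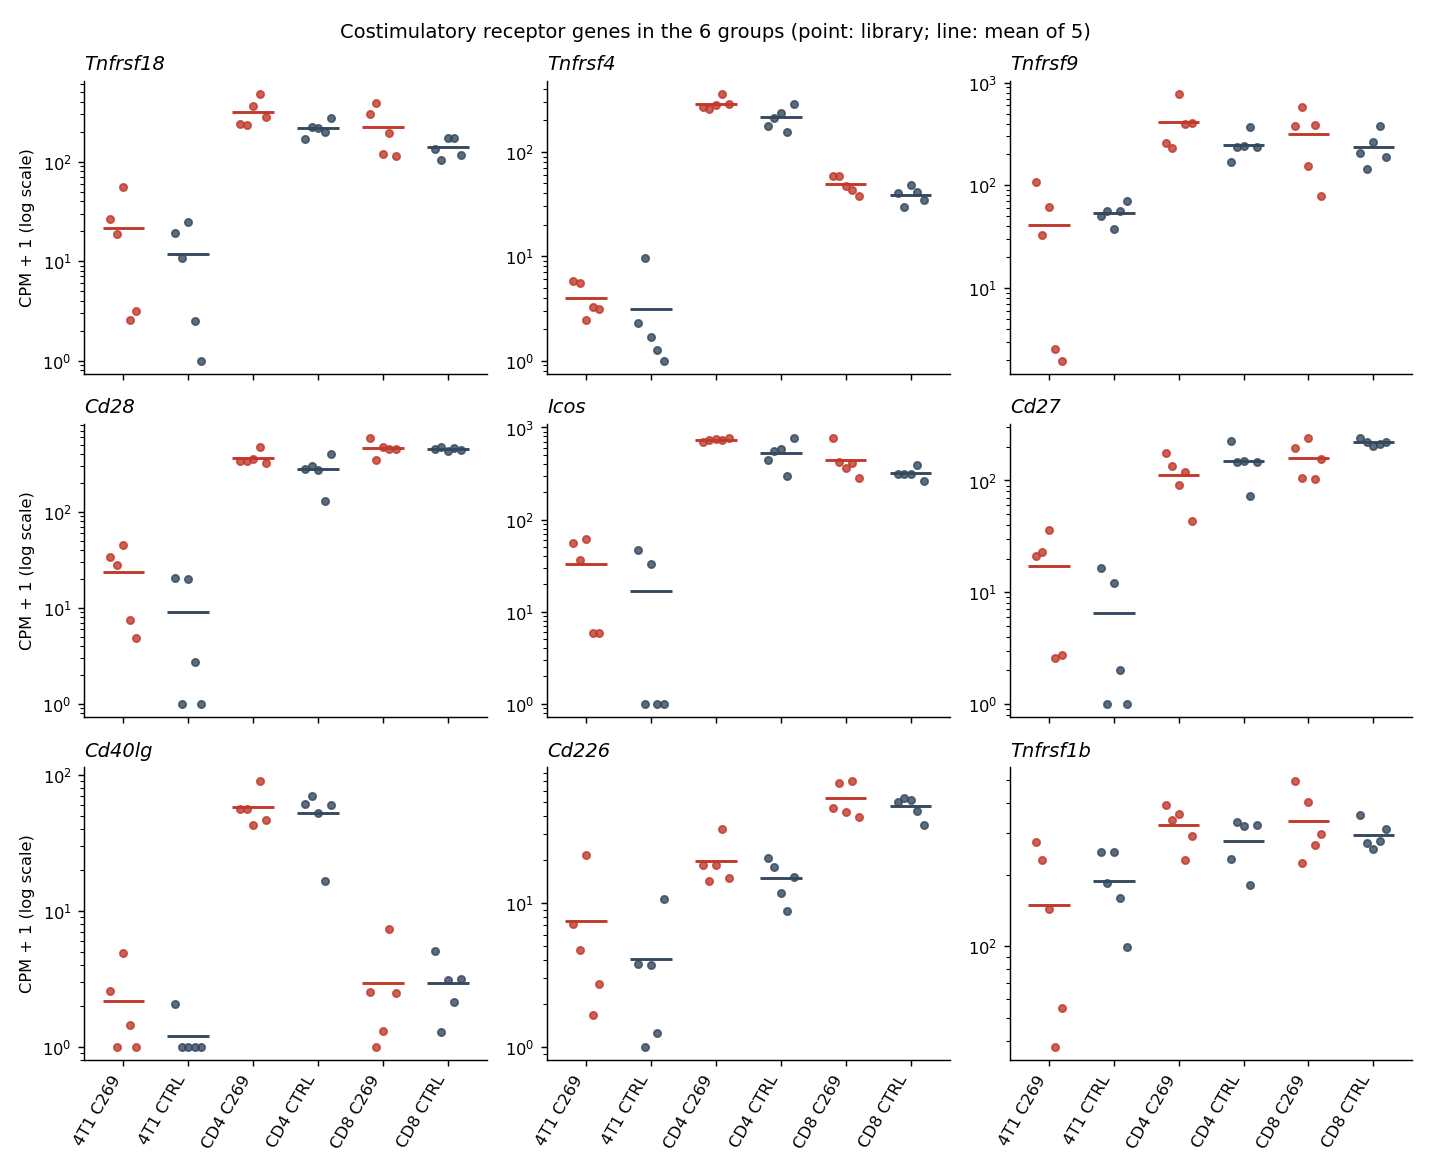
CPM + 1 on a log scale for each of the 9 receptor genes, one panel per gene, in 4T1, CD4 and CD8 libraries under C269 (red, left of each pair) and CTRL (dark blue). Points are libraries and lines are means of 5; Tnfrsf4 and Cd40lg sit lower in all 10 CD8 libraries than in all 10 CD4 libraries, and Cd226 sits higher.

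CD8 and CD4 libraries were compared within each treatment by edgeR's quasi-likelihood test, as contrasts in 1 fit of all 30 libraries, with Benjamini-Hochberg adjustment over 14731 genes and a threshold of 0.05. Of the 9 receptors, 2 were called in C269, against 7.98% of all tested genes, and 2 in CTRL, against 7.01%. Both were lower in CD8, the direction of 5.67% of tested genes in C269 and 5.25% in CTRL, and none was called higher, against 2.31% of tested genes in C269 and 1.76% in CTRL. The log2 difference was above 0 for 4 receptors in C269 (48.3% of all tested genes) and 5 in CTRL (49.2%). The ranges of the 2 populations did not overlap for 3 receptors in C269 and 4 in CTRL. Among all genes averaging at least 1 CPM, that share was 9.16% in C269 and 16% in CTRL.

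Tnfrsf4 encodes OX40, a receptor induced on activated helper T cells and present on regulatory T cells, and lies at chr4:156013843-156016612 on the plus strand (GRCm38). Its levels in CD8 C269 libraries 26 to 30 were 58.1, 57.8, 45.6, 42.5 and 36.9 CPM, against 264, 254, 280.3, 353 and 284 CPM in CD4 C269 libraries 16 to 20. In CD8 CTRL libraries 21 to 25 they were 39.2, 28.9, 46.7, 40.4 and 33.3 CPM, against 177, 212, 232, 154.5 and 285 CPM in CD4 CTRL libraries 11 to 15. Every CD8 library was below every CD4 library, under either treatment. Tnfrsf4 was lower in CD8 by a log2 difference of -2.49 (SE 0.43) in C269 (edgeR adjusted p = 0.000484) and of -2.42 (SE 0.43) in CTRL (edgeR adjusted p = 0.000733).

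Tnfrsf18 encodes GITR, a receptor that regulatory T cells carry and that conventional T cells raise on activation. It is the neighbour of Tnfrsf4, at chr4:156026164-156028895 on the same strand with 9551 bases between the genes, and its CD8 and CD4 levels were closer. Its levels were 299, 385, 118, 195 and 113 CPM in CD8 C269 libraries 26 to 30, against 239, 234.5, 357, 472 and 279 CPM in CD4 C269 libraries 16 to 20. In CTRL they were 132.5, 102, 173, 172 and 115 CPM in CD8 libraries 21 to 25, against 169, 221, 217, 197.5 and 270.3 CPM in CD4 libraries 11 to 15. In CPM the ranges overlapped under both treatments. Relative to the CD3 sum of the same library, which was higher in CD8 libraries, the Tnfrsf18 ranges were separate under both. They were 0.0778 to 0.216 in CD8 and 0.2385 to 0.530 in CD4 under C269. Under CTRL they were 0.070 to 0.1095 in CD8 and 0.181 to 0.440 in CD4. In the fit of 30 libraries, which does not use the CD3 sum, Tnfrsf18 was not called. CD8 differed from CD4 by a log2 value of -0.43 (SE 0.64; edgeR adjusted p = 0.765) in C269 and -0.56 (SE 0.64; edgeR adjusted p = 0.730) in CTRL. The ratio of the neighbours was then compared within libraries, as log2 of Tnfrsf4 over Tnfrsf18 with 1 CPM added to each. It averaged -2.03 ± 0.56 in CD8 and -0.095 ± 0.27 in CD4 libraries under C269, a difference of -1.94. Under CTRL it averaged -1.84 ± 0.13 in CD8 and -0.035 ± 0.19 in CD4 libraries, a difference of -1.81. Ranges were separate in both, with p = 0.00794 in each treatment by a two-sided exact permutation test over 252 assignments, the smallest that 5 against 5 allows (0.00794 after Benjamini-Hochberg adjustment over both).

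**Figure D2:**
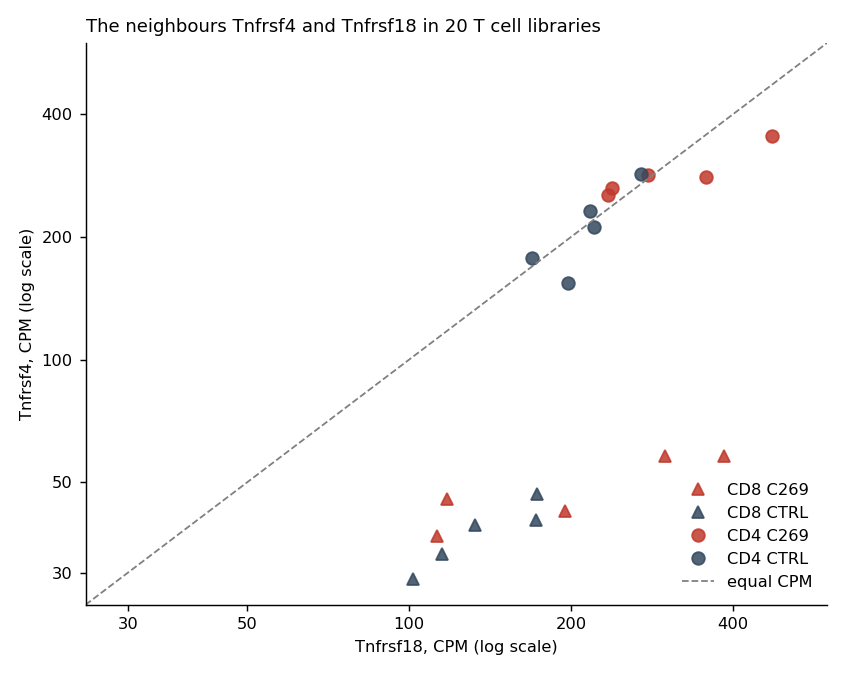
Tnfrsf4 against Tnfrsf18 in CPM, both on log scales, in the 20 T cell libraries (triangles CD8, circles CD4; red C269, dark blue CTRL), with a dashed line at equal CPM. CD4 libraries lie near the line and all 10 CD8 libraries lie below it, at 28.9 to 58.1 CPM of Tnfrsf4.

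The 250 bases upstream of the RefSeq start of each neighbour are shown because the genes are close on the chromosome while the ratio of their levels differed between populations. RefSeq (GRCm38.p6) promoters were found for 5 of the 9 receptors, Tnfrsf18, Tnfrsf4, Tnfrsf9, Cd27 and Tnfrsf1b. The Tnfrsf18 stretch is chr4:156026072-156026321 and the Tnfrsf4 stretch is chr4:156013445-156013694, both on the plus strand and written 5′ to 3′. The RefSeq starts are not those of the gene coordinates given above: that of Tnfrsf18 lies 158 bases inside the stated gene, and that of Tnfrsf4 lies 148 bases before it.
Tnfrsf18: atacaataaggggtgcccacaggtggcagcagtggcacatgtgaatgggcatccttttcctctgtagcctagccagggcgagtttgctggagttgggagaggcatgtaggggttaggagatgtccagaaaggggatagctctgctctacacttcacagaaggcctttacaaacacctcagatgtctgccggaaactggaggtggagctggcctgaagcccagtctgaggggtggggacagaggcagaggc
Tnfrsf4: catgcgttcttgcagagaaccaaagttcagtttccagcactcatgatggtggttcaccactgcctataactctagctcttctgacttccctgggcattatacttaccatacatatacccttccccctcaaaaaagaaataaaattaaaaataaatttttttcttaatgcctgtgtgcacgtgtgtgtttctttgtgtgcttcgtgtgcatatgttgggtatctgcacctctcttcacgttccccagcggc
Neither stretch holds the NF-kB consensus or the AP-1 motif TGANTCA on either strand, which 7.25% and 6.75% of all 32851 promoter stretches of this length hold. The NFAT core GGAAA, searched on both strands, is in 2 places in Tnfrsf18 and 1 place in Tnfrsf4, and in 55.6% of all such stretches. The absence of these letters says nothing about binding of the factors. G and C make up 56% of the Tnfrsf18 stretch and 42.8% of the Tnfrsf4 stretch.

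Cd40lg, the ligand with which helper T cells license B cells and dendritic cells, lies at chrX:57212143-57224042 on the plus strand. It was at 1.52, 0, 0.306, 6.42 and 1.49 CPM in CD8 C269 libraries 26 to 30, from 0 to 13 counts. CD4 C269 libraries 16 to 20 had 55.0, 55.3, 41.8, 90.0 and 46.1 CPM. In CTRL, CD8 libraries ran from 0.283 to 4.09 CPM with a median of 2.10 CPM, and CD4 libraries from 15.75 to 68.8 CPM with a median of 59.6 CPM. All CD8 libraries were below all CD4 libraries, and the lowest CD4 CTRL library was library 14. The log2 difference of CD8 against CD4 was -4.84 (SE 0.85; edgeR adjusted p = 0.000549) in C269 and -4.60 (SE 0.82; edgeR adjusted p = 0.00078) in CTRL.

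Cd226 encodes DNAM-1, a receptor of cytotoxic lymphocytes. Its levels were 44.8, 66.8, 41.6, 69.7 and 38.8 CPM in CD8 C269 libraries, against 17.3, 13.3, 17.35, 31.4 and 13.99 CPM in CD4 C269 libraries. In CTRL they were 49.6, 52.3, 50.6, 42.7 and 33.98 CPM in CD8 libraries, against 19.6, 16.9, 10.8, 7.75 and 14.1 CPM in CD4 libraries. Every CD8 library was above every CD4 library under either treatment. Relative to the CD3 sum of the same library, which was higher in CD8 libraries, the ranges overlapped in C269, at 0.0249 to 0.0444 in CD8 and 0.0141 to 0.0353 in CD4. They stayed separate in CTRL, at 0.0253 to 0.0362 in CD8 and 0.0122 to 0.0210 in CD4. The log2 difference was 1.57 (SE 0.61) in C269 and 1.80 (SE 0.61) in CTRL, and missed the threshold in the fit of 30 libraries, with edgeR adjusted p = 0.111 in C269 and 0.0739 in CTRL. In a fit of the 20 T cell libraries without the 4T1 libraries, an alternative chosen after seeing the data, edgeR's adjusted p for Cd226 was 0.000402 in C269 and 0.000102 in CTRL. That fit called 3 receptors in C269 and 5 in CTRL, against 14% of 13264 genes in C269 and 12.7% in CTRL.

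Cd28, the founding costimulatory receptor and the partner of CD80 and CD86, lies at chr1:60716800-60773359. It averaged 463 ± 88.2 CPM in CD8 C269 and 366 ± 61.9 CPM in CD4 C269, with overlapping ranges, and 451 ± 19.9 CPM in CD8 CTRL and 277 ± 97.6 CPM in CD4 CTRL. The CTRL ranges were separate, 426 to 476 CPM in CD8 and 129.8 to 403 CPM in CD4, with library 14 the lowest of CD4. Relative to the CD3 sum the direction turned, with overlapping ranges and means of 0.295 ± 0.0394 in CD8 CTRL and 0.333 ± 0.0700 in CD4 CTRL. In C269 the means were 0.289 ± 0.0551 in CD8 and 0.453 ± 0.0964 in CD4, with separate ranges of 0.195 to 0.330 and 0.3405 to 0.542. The log2 difference of CD8 against CD4 in CTRL was 0.77 (SE 0.62; edgeR adjusted p = 0.573), and 0.76 (SE 0.20; edgeR adjusted p = 0.0118) in the fit of 20 libraries. Icos, a receptor of follicular helper and regulatory T cells that lies 204567 bases from Cd28, averaged 447 ± 183 CPM in CD8 C269 and 738 ± 29.8 CPM in CD4 C269. In CTRL it averaged 318 ± 47.1 CPM in CD8 and 529.8 ± 176 CPM in CD4. In CPM the Icos ranges overlapped under both treatments. Relative to the CD3 sum they were separate under both. Under C269, Icos had ratios of 0.199 to 0.421 in CD8 and 0.693 to 1.304 in CD4. Under CTRL, Icos had 0.167 to 0.250 in CD8 and 0.475 to 0.874 in CD4. Its log2 difference in CTRL was -0.67 (SE 0.78; edgeR adjusted p = 0.733), and -0.67 (SE 0.22; edgeR adjusted p = 0.0481) in the fit of 20 libraries.

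The remaining receptors had overlapping CD8 and CD4 ranges in CPM and were not called in the fit of 30 libraries or in that of 20. Relative to the CD3 sum, the only separate ranges among them were those of Tnfrsf1b in CTRL. These were 0.139 to 0.233 in CD8 and 0.2465 to 0.399 in CD4. Tnfrsf9, a receptor of recently stimulated cytotoxic T cells at chr4:150914562-150946102, averaged 315 ± 199.9 CPM in CD8 C269 against 411 ± 215 CPM in CD4 C269, and in CTRL 237 ± 91.4 CPM in CD8 against 249 ± 74.0 CPM in CD4. Cd27, the receptor of CD70 at chr6:125232622-125237010 on the minus strand, averaged 158 ± 59.2 CPM in CD8 C269 against 112 ± 49.4 CPM in CD4 C269, and in CTRL 219 ± 13.9 CPM in CD8 against 147 ± 53.4 CPM in CD4. Tnfrsf1b, the second TNF receptor at chr4:145213463-145246870 on the minus strand, averaged 337 ± 111 CPM in CD8 C269 against 322 ± 63.5 CPM in CD4 C269, and in CTRL 294 ± 40.1 CPM in CD8 against 277 ± 68.4 CPM in CD4. A fit of the 2 CTRL groups alone called 7 receptors, every one but Tnfrsf9 and Tnfrsf1b, against 23.3% of 12109 genes. The same kind of fit in C269 called 3 receptors, Tnfrsf4, Cd40lg and Cd226, against 7.67% of 11797 genes. The plot of CD8 against CD4 differences gives all 9 receptors under both treatments.

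**Figure D3:**
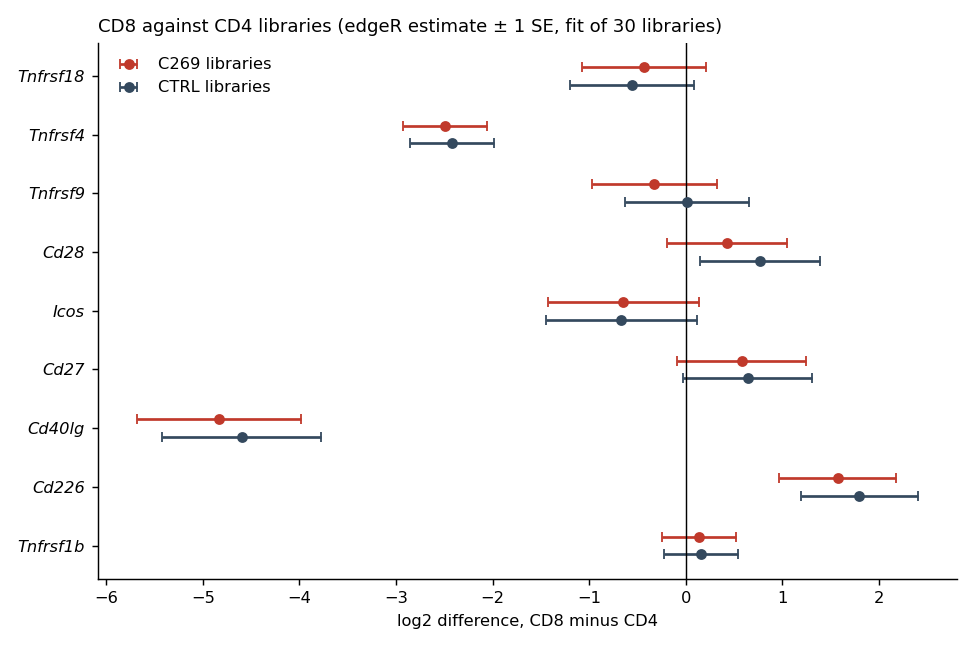
Log2 difference of CD8 minus CD4 libraries for each receptor gene in C269 (red, upper of each pair) and CTRL (dark blue, lower), from the edgeR fit of 30 libraries, with bars of 1 SE. Tnfrsf4 and Cd40lg lie far below 0 and Cd226 above it, at 1.57 in C269 and 1.80 in CTRL.

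In CD4 libraries, C269 was compared with CTRL by edgeR's quasi-likelihood test in a fit of these 10 libraries. None of the 9 receptors passed the threshold, and neither did any of 12393 genes (0%). At an unadjusted p under 0.05 there were 4 receptors, against 5.62% of all tested genes, and DESeq2 called 17 genes, none of them a receptor. The receptors' log2 difference was above 0 for 8 of 9, against 50.8% of all tested genes, with a median of 0.39 against 0.0047 over all tested genes. No receptor had separate ranges, against 0.75% of genes averaging at least 1 CPM.

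The 4 receptors with an unadjusted p under 0.05 were Tnfrsf18, Tnfrsf9, Tnfrsf4 and Icos. For Tnfrsf18, with the library values given above, 3 of 5 C269 libraries (18, 19 and 20) were above all CTRL libraries and the other 2 lay within the CTRL range. Its mean was 316 ± 100.1 CPM in C269 and 215 ± 37.0 CPM in CTRL, a log2 difference of 0.53 (SE 0.19, edgeR adjusted p = 0.794) that stayed between 0.37 and 0.62 when 1 library was left out. Tnfrsf9 had 255, 230.2, 769, 398.5 and 404.5 CPM in C269 libraries 16 to 20, against 166, 234, 239, 369 and 235 CPM in CTRL libraries 11 to 15. The same 3 C269 libraries were above all CTRL libraries, with library 18 highest, and the highest CTRL library was library 14. The log2 difference of Tnfrsf9 was 0.72 (SE 0.28, edgeR adjusted p = 0.865), and 0.35 without library 18.

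Tnfrsf4 averaged 287 ± 38.9 CPM in C269 and 212 ± 50.7 CPM in CTRL, a log2 difference of 0.41 (SE 0.17, edgeR adjusted p = 0.882), with 1 C269 library above the CTRL range. Icos had 694, 737, 745.5, 737 and 777 CPM in C269 libraries 16 to 20, against 445, 560, 580.3, 294 and 770.1 CPM in CTRL libraries 11 to 15. The C269 libraries were close together and the CTRL libraries were spread, with library 15 inside the C269 range and library 14 lowest. The log2 difference of Icos was 0.45 (SE 0.21, edgeR adjusted p = 0.882), and 0.29 without library 14. Cd27 was the one receptor with a negative difference in CD4 libraries, at 112 ± 49.4 CPM in C269 and 147 ± 53.4 CPM in CTRL (log2 -0.43, SE 0.33, edgeR adjusted p = 0.906), with values from -0.66 to -0.22 when 1 library was left out. The differences of Cd28 (0.37), Cd226 (0.39), Tnfrsf1b (0.20) and Cd40lg (0.12) had edgeR adjusted p from 0.902 to 0.975. Without library 14 those of Cd28 and Tnfrsf1b were 0.17 and 0.062, and without library 19 that of Cd226 was 0.16.

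**Figure D4:**
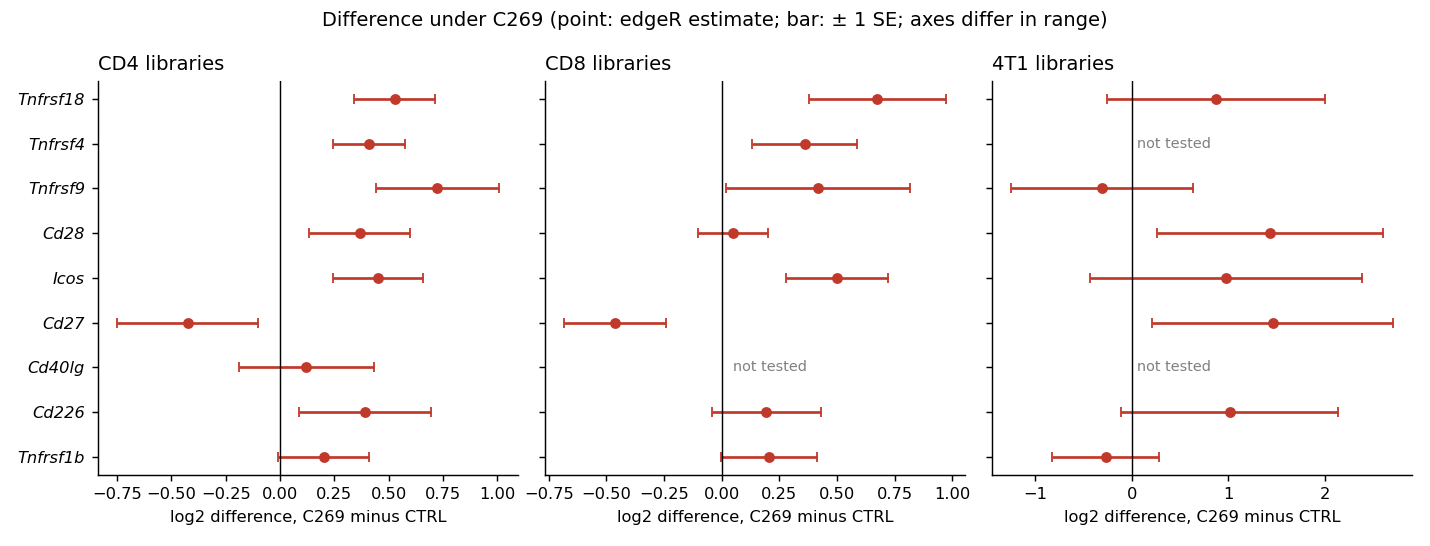
Log2 difference of C269 minus CTRL for each receptor gene in CD4, CD8 and 4T1 libraries (panels left to right, with different horizontal ranges), from the edgeR fit of each population, with bars of 1 SE. In CD4 and CD8 libraries Cd27 is the one gene below 0, at -0.43 and -0.46, and bars are widest in 4T1 libraries.

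In the CD4 libraries several marker lists had every tested gene above 0 under C269, none of them called. The part of these lists in the receptors' values was not tested. Of 5 regulatory T cell markers (Foxp3, Il2ra, Ikzf2, Ctla4 and Ikzf4), 5 had a log2 difference above 0, 2 with an unadjusted p under 0.05, and none was called. Their sum ran from 1165 to 1659 CPM in C269 and from 735 to 1353 CPM in CTRL. Foxp3, the defining factor of regulatory T cells, averaged 120.1 ± 26.3 CPM in C269 and 95.2 ± 18.4 CPM in CTRL. The epithelial markers had 4 of 4 genes with a log2 difference above 0 and an unadjusted p under 0.05, and none called, with sums of 249.6 to 569 CPM in C269 and 198.5 to 296 CPM in CTRL. The CD8 lineage markers Cd8a and Cd8b1 also had 2 of 2 such genes, with sums of 40.1 to 80.8 CPM in C269 and 21.9 to 42.6 CPM in CTRL. No regulatory T cell, epithelial or CD8 lineage marker was at 0 in all libraries of a CD4 group. Also above 0 were 3 of 3 erythroid markers (median 0.45), 4 of 4 tested B cell markers (median 0.54) and the 1 tested NK cell marker (0.81). Only the NK cell marker among these had an unadjusted p under 0.05. Other lists went the other way, with 4 of 5 macrophage and monocyte markers, 6 of 10 T cell markers and 2 of 2 CD4 lineage markers below 0. The CD3 sum, given above, differed by less than its spread.

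In CD8 libraries, none of the 8 receptors tested was called under C269, against 0.00914% of 10943 genes (1 gene), and DESeq2 called 18 genes, none of them a receptor. Cd40lg was too low to be tested. At an unadjusted p under 0.05 there were 2 receptors, Tnfrsf18 and Icos, against 6.63% of all tested genes. The log2 difference was above 0 for 7 of 8 receptors, against 50.9% of all tested genes, with a median of 0.28 against 0.0097 over all tested genes. No receptor had separate ranges, against 1.24% of genes averaging at least 1 CPM.

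Tnfrsf18 averaged 222 ± 118.5 CPM in CD8 C269 and 139 ± 32.6 CPM in CD8 CTRL, a log2 difference of 0.68 (SE 0.30, edgeR adjusted p = 0.742), and 0.40 without library 27. Libraries 26, 27 and 29 were above all CTRL libraries, and libraries 28 and 30 lay within the CTRL range. Those 3 libraries had the highest rRNA shares of the CD8 libraries, at 6.43%, 7.95% and 7.25% of counts, and the fewest detected genes, at 15180, 12208 and 13400. Libraries 28 and 30 had 2.48% and 4.70% rRNA with 15677 and 15786 genes, and CD8 CTRL libraries 3.18% to 5.08% with 15775 to 17169 genes. The part of RNA quality or depth in the receptors' values was not tested. Icos had 759, 420.3, 365, 412.5 and 278.5 CPM in C269 libraries 26 to 30, against 313, 314, 308, 393 and 262 CPM in CTRL libraries 21 to 25, with library 26 far above the rest. Its log2 difference was 0.50 (SE 0.22, edgeR adjusted p = 0.742), and 0.22 without library 26. Cd27 had 193, 103, 239, 101 and 154 CPM in C269 libraries 26 to 30, against 241, 218, 204.5, 211 and 221 CPM in CTRL libraries 21 to 25. Here 4 of 5 C269 libraries were below all CTRL libraries, and library 28, which had the lowest rRNA share of the CD8 libraries, was inside the CTRL range. Libraries 27 and 29, with the highest rRNA shares, had the lowest Cd27. Cd27 had a log2 difference of -0.46 (SE 0.22, edgeR adjusted p = 0.742).

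Tnfrsf9 spread over 77.9 to 575 CPM in CD8 C269, wider on both sides than its 144.6 to 381 CPM in CD8 CTRL, with a log2 difference of 0.42 (SE 0.40, edgeR adjusted p = 0.873), and 0.10 without library 27. Tnfrsf4 (0.36), Tnfrsf1b (0.20), Cd226 (0.19) and Cd28 (0.05) had edgeR adjusted p from 0.806 to 0.958. In CD8 libraries too, 4 of 4 epithelial markers had a log2 difference above 0 with an unadjusted p under 0.05. Their sums ran from 46.8 to 360 CPM in C269, the highest in library 27, and from 35.1 to 94.4 CPM in CTRL. Of 4 tested B cell markers, 3 had a log2 difference above 0 and 1 had an unadjusted p under 0.05, with sums of 14.8 to 95.4 CPM in C269 and 13.3 to 33.3 CPM in CTRL. Of 3 tested neutrophil markers, 3 were above 0 and 1 had an unadjusted p under 0.05, with a median of 0.95 and sums of 335 to 1893 CPM in C269 and 251.5 to 489 CPM in CTRL. Both tested erythroid markers were above 0, with sums of 89.3 to 2171 CPM in C269 and 162 to 424 CPM in CTRL. Library 29 was the highest for neutrophil and erythroid sums. No gene of these 4 lists was called. The part of these cells in the receptors' values was not tested.

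No receptor was called for a difference between populations in its C269 effect. In the fit of 30 libraries, 0 of 9 receptors and 0% of 14731 genes were called for the C269 difference in CD8 against that in CD4, where 0 receptors and 3.84% of genes had an unadjusted p under 0.05. DESeq2 called 19 genes, none of them a receptor. The C269 difference in 4T1 was set against that in CD4 and in CD8 in the same fit: 0 receptors were called in each, against 0.00679% of genes in each. Against CD4, 0 receptors had an unadjusted p under 0.05, where 9.41% of genes did, and 7 of 9 were above 0, where 54.8% of genes were. Between CD8 and CD4, the largest value among receptors was -0.34 for Cd28 (SE 0.88). That SE is from the fit that includes the 4T1 libraries. The fits of 1 population gave Cd28 SEs of 0.23 in CD4 and 0.15 in CD8, so the fit of 30 could miss a difference. A fit of the 20 T cell libraries, added after seeing the data, also called 0% of 13264 genes for this difference. Because the directions were alike, the mean of the CD4 and CD8 differences was also tested, in a fit of the 20 T cell libraries chosen after seeing the data. It treats CD4 and CD8 libraries as independent, and the labels do not state whether they share animals. If they do, its SEs and p-values could be too small. None of the 9 receptors was called, against 0.0528% of 13264 genes (7 genes), and 5 had an unadjusted p under 0.05, against 9.94% of all tested genes. The averaged difference was above 0 for 7 receptors, against 49.7% of all tested genes. Tnfrsf18 was at 0.59 (SE 0.19, edgeR adjusted p = 0.262), Tnfrsf4 at 0.38 (SE 0.12, edgeR adjusted p = 0.283) and Icos at 0.47 (SE 0.16, edgeR adjusted p = 0.308). Tnfrsf9 was at 0.56 (SE 0.27, edgeR adjusted p = 0.5) and Cd27 at -0.45 (SE 0.21, edgeR adjusted p = 0.489). Without a filter on low counts this test called 3 receptors, Tnfrsf18, Tnfrsf9 and Icos, with 370 of 28250 genes called (1.31%). In the authors' deposited table, which gives CTRL over C269 on the log2 scale, Tnfrsf18 had -0.45 in CD4 (adjusted p = 0.546) and -0.59 in CD8 libraries (adjusted p = 0.616).

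A promoter of Tnfrsf9 is shown because 4-1BB is a known NF-kB target and this start, the second of 2 in RefSeq, was the one receptor stretch that held the searched NF-kB and AP-1 letters. It is chr4:150927749-150927998 on the plus strand, with those letters in capitals.
Tnfrsf9: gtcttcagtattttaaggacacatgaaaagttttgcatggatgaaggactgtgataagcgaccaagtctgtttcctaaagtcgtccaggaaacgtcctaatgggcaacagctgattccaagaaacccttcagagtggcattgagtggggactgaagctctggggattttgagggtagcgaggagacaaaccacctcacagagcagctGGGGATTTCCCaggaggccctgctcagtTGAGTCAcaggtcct
The capitals mark an 11-base stretch of overlapping matches to the NF-kB consensus, 43 bases before the start, and an AP-1 match, 15 bases before it. The stretch at the first start of Tnfrsf9, and those of Cd27 and Tnfrsf1b, held neither. A match is a description of these letters and not evidence of a site in use.

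The receptors' ligands, adaptors and targets were counted from lists drawn up with earlier results of these data known. Under C269, none of their tested genes was called in CD4 or CD8 libraries. Of 9 tested ligands and partners in CD4 libraries, 4 had a log2 difference above 0, with a median of -0.013. The smallest p was that of Cd80, a ligand of CD28, at 13.8 ± 5.38 CPM in C269 and 5.76 ± 1.86 CPM in CTRL (log2 1.24, SE 0.36, edgeR adjusted p = 0.743). Lta, a ligand of TNFR2, came next, at 5.39 ± 3.32 CPM in C269 and 8.87 ± 3.46 CPM in CTRL (edgeR adjusted p = 0.906). In CD8 libraries, 5 of 10 tested ligands were above 0. Cd80 was at 12.98 ± 7.59 CPM in C269 and 7.46 ± 0.706 CPM in CTRL, and Cd86, the other CD28 ligand, at 42.7 ± 12.9 CPM in C269 and 31.5 ± 9.34 CPM in CTRL (edgeR adjusted p = 0.806 for each).

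Of 22 signalling adaptors, 8 had a log2 difference above 0 in CD4 libraries (median -0.042) and 8 in CD8 libraries (median -0.100). In CD4 libraries, Nfkb1, a subunit of NF-kB, had 454 ± 84.1 CPM in C269 and 319.8 ± 75.7 CPM in CTRL (log2 0.48, SE 0.18, edgeR adjusted p = 0.865). Vav1, an exchange factor downstream of CD28, had 42.4 ± 8.77 CPM in C269 and 55.2 ± 10.6 CPM in CTRL (log2 -0.41, SE 0.19, edgeR adjusted p = 0.882). In CD8 libraries, Prkcq, the kinase that links CD28 to NF-kB, had 36.6 ± 11.3 CPM in C269 and 72.1 ± 2.89 CPM in CTRL (log2 -0.96, SE 0.23, edgeR adjusted p = 0.739). Relb, the subunit of noncanonical NF-kB, had 130.9 ± 29.3 CPM in C269 and 91.6 ± 18.9 CPM in CTRL (log2 0.52, SE 0.22, edgeR adjusted p = 0.741).

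Of 9 induced targets tested in CD4 libraries, 5 were above 0 (median 0.13). Il2ra, the high-affinity interleukin-2 receptor chain that costimulation raises, is also 1 of the 5 regulatory T cell markers counted above. It had 144, 158, 238, 328 and 258 CPM in C269 libraries 16 to 20, against 91.2, 101.5, 107, 106 and 179.7 CPM in CTRL libraries 11 to 15. Libraries 18, 19 and 20 were above all CTRL libraries, as for Tnfrsf18 and Tnfrsf9. Il2ra had a log2 difference of 0.92 (SE 0.22, edgeR adjusted p = 0.670). Il4, a helper T cell cytokine, had 24.4 ± 7.04 CPM in C269 and 8.93 ± 8.27 CPM in CTRL (log2 1.42, SE 0.47, edgeR adjusted p = 0.743). In CD8 libraries, 4 of 6 tested targets were above 0 (median 0.26). The survival gene Bcl2a1b had 138.5 ± 63.1 CPM in C269 and 67.9 ± 24.5 CPM in CTRL, and Bcl2l1, which encodes BCL-XL, 88.0 ± 27.5 CPM in C269 and 55.6 ± 7.23 CPM in CTRL (edgeR adjusted p = 0.739 for each).

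Among the related receptors in CD4 libraries, 2 of 6 were above 0 (median -0.17). Tnfrsf14, encoding HVEM, had 4.65 ± 2.91 CPM in C269 and 8.33 ± 4.18 CPM in CTRL, and Tnfrsf8, encoding CD30, 5.99 ± 3.49 CPM in C269 and 4.18 ± 1.04 CPM in CTRL. In CD8 libraries, 2 of 5 were above 0 (median -0.11). Slamf1 had 19.6 ± 3.34 CPM in C269 and 32.2 ± 5.49 CPM in CTRL (edgeR adjusted p = 0.739), and Tnfrsf25, encoding DR3, 13.8 ± 7.27 CPM in C269 and 7.87 ± 3.09 CPM in CTRL. Of the receptors that compete for the same ligands, 1 of 3 was above 0 in each population. Cd96, which shares a ligand with DNAM-1, had 60.7 ± 24.7 CPM in CD8 C269 and 79.5 ± 15.5 CPM in CD8 CTRL, and Ctla4, which shares the ligands of CD28, 229.5 ± 49.0 CPM in CD8 C269 and 196 ± 38.9 CPM in CD8 CTRL. In CD4 libraries, Cd96 had 29.1 ± 8.24 CPM in C269 and 36.4 ± 14.5 CPM in CTRL, and Btla 30.9 ± 16.3 CPM in C269 and 39.5 ± 20.4 CPM in CTRL.

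Between CD8 and CD4 libraries in CTRL, 1 of 11 tested ligands and partners and 1 of 22 adaptors were called. Of 9 induced targets there, 1 was called higher and 1 lower. The share over all tested genes was 7.01%. In C269, 1 of 11 ligands and partners, 1 of 22 adaptors and 1 of 9 induced targets were called, against 7.98% of all tested genes. In CTRL, Nectin2, a ligand of DNAM-1, was lower in CD8, at 4.74 ± 2.42 CPM against 19.4 ± 3.43 CPM in CD4 (edgeR adjusted p = 0.0304). The kinase Akt1 was lower in CD8 as well, at 147 ± 23.2 CPM against 239.6 ± 42.2 CPM in CD4 (edgeR adjusted p = 0.0209). The survival gene Bcl2 was higher in CD8, at 452 ± 60.6 CPM against 243 ± 74.1 CPM in CD4 (edgeR adjusted p = 0.0337). Il4 had 0 counts in every CD8 CTRL library and was at least 48.2-fold lower than in CD4 CTRL, taking 3 counts over the CD8 group as its limit (edgeR adjusted p = 0.0122). In C269, Tnfsf4, the ligand of OX40, was higher in CD8, at 16.7 ± 12.7 CPM against 2.37 ± 1.17 CPM in CD4 (edgeR adjusted p = 0.0490). Relb was higher in CD8, at 130.9 ± 29.3 CPM against 75.97 ± 13.1 CPM in CD4 (edgeR adjusted p = 0.0296). Il21 had 0 counts in every CD8 C269 library and was at least 17.8-fold lower than in CD4 C269 (edgeR adjusted p = 0.0363). No related or competing receptor was called. In CTRL, Tnfrsf25 had 7.87 ± 3.09 CPM in CD8 and 17.8 ± 2.16 CPM in CD4, and Tnfrsf8 0.923 ± 1.15 CPM in CD8 and 4.18 ± 1.04 CPM in CD4. In C269, Tnfrsf8 had 1.28 ± 1.76 CPM in CD8 and 5.99 ± 3.49 CPM in CD4, and Havcr1 8.09 ± 6.49 CPM in CD8 and 1.90 ± 1.15 CPM in CD4. Cd96 had 60.7 ± 24.7 CPM in CD8 and 29.1 ± 8.24 CPM in CD4 under C269, and 79.5 ± 15.5 CPM in CD8 and 36.4 ± 14.5 CPM in CD4 under CTRL. Ctla4 had 229.5 ± 49.0 CPM in CD8 and 413 ± 35.6 CPM in CD4 under C269, and 196 ± 38.9 CPM in CD8 and 398 ± 123 CPM in CD4 under CTRL.

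The sorted 4T1 libraries held little of most receptors, and what they held differed between libraries. Against CD4 CTRL, 6 of 9 receptors were called lower in 4T1 CTRL, against 3.75% of 14731 genes called lower and 5.89% called in all. All 9 log2 differences were below 0, where 48.7% of tested genes were above it. Against CD8 CTRL, 8 of 9 were called lower, against 14.6% called lower and 32.1% called in all. Separate ranges were found for 7 receptors against CD4, where 9.15% of genes had them, and for 8 against CD8, where 23.8% had them. The level of Tnfrsf4 was 2.15 ± 3.60 CPM in 4T1 and 212 ± 50.7 CPM in CD4, both CTRL, a log2 difference of -6.80 (SE 0.56, edgeR adjusted p = 2.66e-09). That of Icos was 15.6 ± 21.96 CPM in 4T1 and 529.8 ± 176 CPM in CD4, both CTRL, a log2 difference of -4.90 (SE 0.92, edgeR adjusted p = 0.00124). Cd40lg had 5 counts in library 1 and 0 counts in the other 4T1 CTRL libraries. Its call against CD8 CTRL (edgeR adjusted p = 0.0438) was lost in 9 of 13 alternatives, 7 of which left out 1 library, with adjusted p up to 0.139.

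Tnfrsf9 and Tnfrsf1b were also counted in the 4T1 libraries that had 0 counts of Icos. Some other receptors were counted there too, at lower levels. Library 2 had 9.80 CPM of Tnfrsf18 and 8.52 CPM of Tnfrsf4, and library 5 had 9.70 CPM of Cd226. Tnfrsf18 and Tnfrsf4 had 0 counts in library 5, and Cd226 had 0 counts in library 2. Icos had 54.4, 35.7, 59.99, 4.94 and 4.83 CPM in 4T1 C269 libraries 6 to 10, against 46.2, 0, 31.8, 0 and 0 CPM in 4T1 CTRL libraries 1 to 5. Tnfrsf9 had 106, 31.8, 59.99, 1.57 and 0.966 CPM in 4T1 C269 libraries 6 to 10, against 49.6, 55.4, 36.7, 54.7 and 69.95 CPM in 4T1 CTRL libraries 1 to 5. Libraries 2, 4 and 5, where Icos had 0 counts, were the 3 highest CTRL libraries for Tnfrsf9. For Tnfrsf1b they were the 3 lowest, at 184, 158 and 98 CPM against 247.6 and 248.9 CPM in libraries 1 and 3. Its 4T1 CTRL mean of 187 ± 63.8 CPM differed by a log2 value of -0.50 (SE 0.39, edgeR adjusted p = 0.487) from the 277 ± 68.4 CPM of CD4 CTRL. The CD3 sum in those libraries was 23.4, 3.26 and 18.4 CPM, against 90.7 and 92.3 CPM in libraries 1 and 3. Libraries 2, 4 and 5 also had 5.74%, 5.50% and 5.85% of counts in rRNA, against 2.02% and 0.961% in libraries 1 and 3. Their platelet and megakaryocyte marker sums (Pf4, Itga2b, Gp9 and Ppbp) were 766, 448 and 455 CPM, against 49.2 and 59.1 CPM in libraries 1 and 3. Their erythroid sums were 1057, 153 and 567 CPM, against 18290 and 19700 CPM. Which cells of the 4T1 fraction gave the Tnfrsf9 and Tnfrsf1b counts was not tested. Macrophage and monocyte markers (Lyz2, Csf1r, Adgre1, C1qa and Cd68), none at 0 in a whole group, summed to 173 to 2657 CPM in 4T1 C269 and 1243 to 5615 CPM in 4T1 CTRL, lowest in libraries 9 and 10. Neutrophil markers summed to 361 and 369 CPM in libraries 9 and 10, against 2752 to 13020 CPM in the other 4T1 libraries.

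**Figure D5:**
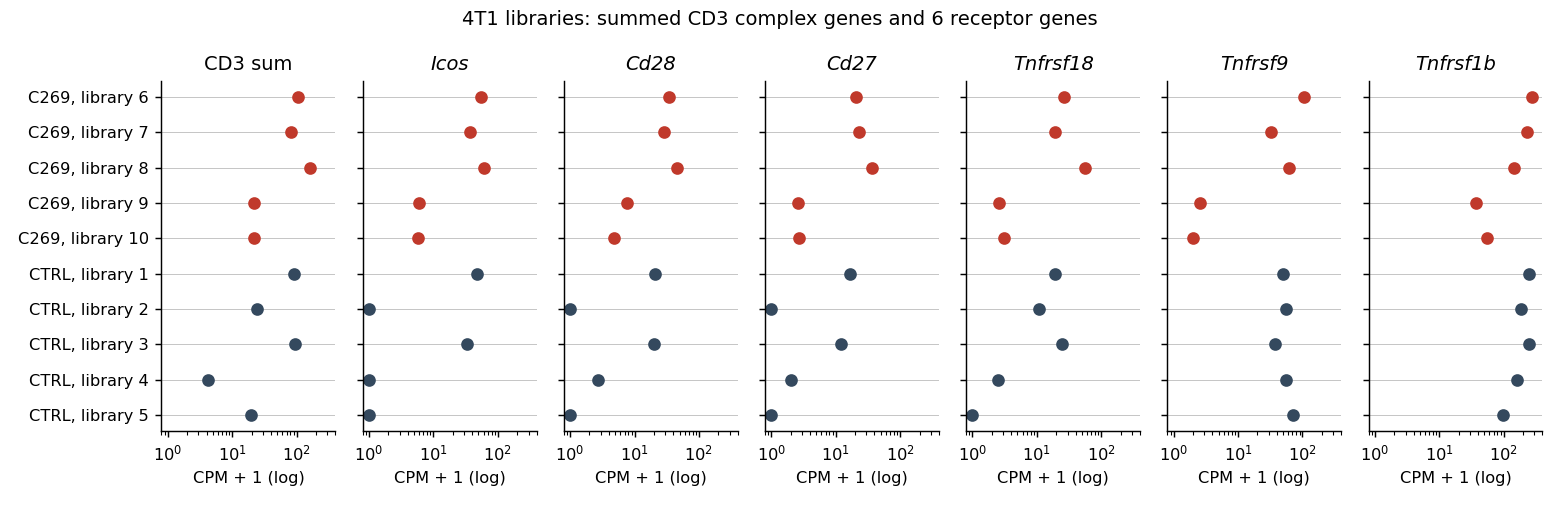
CPM + 1 on a log scale in each 4T1 library (C269 red, above; CTRL dark blue, below) for the summed CD3 complex genes and 6 receptor genes, 1 panel each. Icos, Cd28 and Cd27 are at or near 0 in libraries 2, 4 and 5, where Tnfrsf9 is at 55.4, 54.7 and 69.95 CPM, and all are low in libraries 9 and 10.

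Under C269, none of 7 tested receptors was called in 4T1 libraries, where 0% of 12875 genes were called by edgeR, 12.1% had an unadjusted p under 0.05 and DESeq2 called 998 genes (3.66% of those it tested), none of them a receptor. None of the 7 had an unadjusted p under 0.05. Tnfrsf4 and Cd40lg were too low to be tested. The log2 difference was above 0 for 5 of 7, against 52.9% of all tested genes, with SEs of 0.56 to 1.41. Cd28 averaged 22.9 ± 17.2 CPM in C269 and 8.09 ± 10.3 CPM in CTRL (log2 1.43, SE 1.17, edgeR adjusted p = 0.649), and Cd27 15.98 ± 14.3 CPM in C269 and 5.48 ± 7.22 CPM in CTRL (log2 1.46, SE 1.25, edgeR adjusted p = 0.670). Of 10 T cell markers, 9 were above 0 and none was called, with sums of 136.5 to 635 CPM in C269 and 61.7 to 428 CPM in CTRL. Tnfrsf9 had a log2 difference of -0.30 (SE 0.94, edgeR adjusted p = 0.926), and 0.43 without libraries 9 and 10. Tnfrsf1b had one of -0.27 (SE 0.56, edgeR adjusted p = 0.882), and 0.30 without those libraries.

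None of the listed pathway genes was called under C269 in 4T1 libraries either. Among 9 tested ligands, Nectin2 had 53.1 ± 42.6 CPM in C269 and 17.9 ± 7.79 CPM in CTRL, and Tnfsf9, the ligand of 4-1BB, 4.57 ± 2.47 CPM in C269 and 14.9 ± 10.01 CPM in CTRL (edgeR adjusted p = 0.359 for each). Pik3r1, a regulatory subunit of phosphoinositide 3-kinase, had 114.5 ± 22.9 CPM in C269 and 67.3 ± 14.4 CPM in CTRL, and the NF-kB subunit gene Rela 90.6 ± 37.6 CPM in C269 and 137 ± 11.1 CPM in CTRL. Myc had 42.4 ± 24.1 CPM in C269 and 91.9 ± 14.5 CPM in CTRL, and the survival gene Mcl1 526 ± 211 CPM in C269 and 879.8 ± 123 CPM in CTRL. Of 3 related and 3 competing receptors tested, 3 and 2 were above 0, among them Cd2 (45.8 ± 41.2 CPM in C269 and 27.7 ± 28.9 CPM in CTRL), Slamf1, Cd96 and Ctla4.

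The genes whose pattern was most like each receptor's were ranked over the 20 T cell libraries by Pearson correlation of log2 of CPM + 1, among 9126 genes averaging at least 10 CPM. These libraries share populations and depth, so the values are a description. For Tnfrsf4 they were Maf (0.959), Cd4 (0.955) and Tiam1 (0.954), and for Cd226 they were Selplg (0.957), Il12rb2 (0.953) and Hcst (0.937). Part of this likeness is the difference between CD8 and CD4 libraries: with each group's mean removed, the values were 0.619 for Maf, 0.346 for Cd4, 0.441 for Tiam1, 0.784 for Selplg, 0.800 for Il12rb2 and 0.607 for Hcst. For Tnfrsf18 they were S100a10 (0.906), Ndufb1-ps (0.888) and Samsn1 (0.886), and for Tnfrsf9 they were Ndufb1-ps (0.860), Serpinb6a (0.859) and Mapkapk2 (0.824). For Icos they were Rgs2 (0.918), Rora (0.911) and Ramp3 (0.903), for Cd28 Nfkbid (0.895), Rhof (0.889) and Ifnar1 (0.882), and for Cd27 Inpp1 (0.915), Arhgap45 (0.909) and Gm2682 (0.902). For Cd40lg they were Lrrc32 (0.942), Myo6 (0.941) and Tnfrsf19 (0.932), which with group means removed were 0.782, 0.541 and 0.396. For Tnfrsf1b they were Neurl3 (0.814), Rnf125 (0.753) and Ptp4a2 (0.741).

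Some receptor genes overlap other annotated genes, and the counting strand is not given in the sources used here, so reads of overlapping parts cannot be told apart. Cd27 overlaps Vamp1, Tnfrsf9 overlaps Camta1 and Tnfrsf18 overlaps Gm16008, each on the opposite strand. On its own strand, Icos overlaps Gm37039, which had 0 to 15.5 CPM in CD8 C269, 3.58 to 9.90 CPM in CD8 CTRL, 18.5 to 24.99 CPM in CD4 C269 and 5.50 to 25.5 CPM in CD4 CTRL. Cd27 likewise overlaps Mir8113, which had 0 counts in all 30 libraries. Under C269, Vamp1 had a log2 difference of -0.12 in CD4 and -0.44 in CD8 libraries, and Camta1 one of 0.27 in CD4 and 0.098 in CD8 libraries (edgeR adjusted p from 0.924 to 0.976). Vamp1 averaged 11.5 ± 4.48 CPM in CD4 C269 and 12.2 ± 2.85 CPM in CD4 CTRL. Library counts of Gm16008 did not exceed 4.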

How the data were processed

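Gene counts of 30 libraries were taken from 3 tables, 1 per population. Per the submitters' processing notes, reads were checked with FastQC, counted with featureCounts and compared with DESeq2, with mm9 named as build; no version, aligner or counting strand is given in the sources used here. The library columns hold raw counts as deposited by the authors. A signal column deposited by the authors, baseMean, averages counts scaled by size factors and was not used. Fold changes in the authors' table are log2 of CTRL over C269, per the file headers. The Wald statistic is a score deposited by the authors, with its p-value and adjusted p-value as deposited. Gene starts equalled those of GENCODE M21 (GRCm38) for 54928 of 55141 identifiers found (99.6%), and coordinates are GRCm38.

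Library columns carry numbers, and each was placed in its group because the condition sums equal 1 set of 5 columns (252 sets tried). No other per-sample column was used. Names of 5 genes that differ between tables were matched by identifier. The 7 rRNA rows (3.05% of counts) entered neither library sizes nor tests. The closest replicate pair, libraries 1 and 3 (4T1 CTRL), differed by a chi-square of 5.19 per gene. The next pair of that group differed by 24.9, and the median pair by 51.9. Libraries 9 and 10 (4T1 C269) differed by 11.1, against a median of 141 in their group. These values show only that no library is a copy of another. All were kept as separate samples, but whether such pairs came from 1 tumour cannot be told. If they did, the p-values of fits with 4T1 libraries could be too small.

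Tests used edgeR 4.0.16 (limma 3.58.1, R 4.3.3): filterByExpr, TMM, quasi-likelihood F tests, Benjamini-Hochberg adjustment and a threshold of 0.05. C269 was tested within each population, and populations and differences between C269 effects in 1 fit of 30 libraries. The SE is the log2 difference divided by the square root of F. DESeq2 1.42.0, RLE size factors, no low-count filter, other sets of libraries and leaving out each library were alternatives. The scripts were tested on simulated counts. Summaries used Python 3.11.15, pandas 2.3.3, numpy 2.4.6 and matplotlib 3.10.9.

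All 9 receptors were named in each comparison. Of each pathway list, the genes past the threshold were named, or else the 2 with the smallest p, and this was not done for 4T1 against T cells or for differences between effects. Like genes were the 3 with the highest correlation per receptor. The receptors, lists and tests were chosen with earlier results of these data known.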

Additional observations from a re-analysis of the deposited data

Results flagged for a closer look

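Each receptor was checked in each group for 1 library far from the other 4, which gave 8 cases among 54 groups. The check's usual rate of about 1 in 20 holds for normally spread values. Several cases here lie near 0 counts, where that rate does not apply, so the number of cases cannot be set against chance. In CD4 C269, library 19 was highest for 3 receptors: Cd28 at 475 CPM (others 323 to 352 CPM), Cd40lg at 90.0 CPM (others 41.8 to 55.3 CPM) and Cd226 at 31.4 CPM (others 13.3 to 17.35 CPM). In CD8 C269, Cd40lg was at 6.42 CPM in library 29 (others 0 to 1.52 CPM). In 4T1 C269, Cd226 was at 20.6 CPM in library 8 (others 0.674 to 6.09 CPM). In 4T1 CTRL, Cd226 was at 9.70 CPM in library 5 (others 0 to 2.78 CPM), Tnfrsf4 at 8.52 CPM in library 2 (others 0 to 1.28 CPM) and Cd40lg at 1.07 CPM in library 1 (others 0).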

How the results depend on the processing

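No paired analysis was possible because the library columns carry no replicate letters, so every fit that joins populations treats their libraries as independent. Among recomputed values of single receptors, 1013 kept their direction and side of the threshold, 29 changed sign, 20 passed and 9 lost it. No alternative moved a C269 call of a receptor within 1 population. With DESeq2, genes called were 998 (4T1), 17 (CD4) and 18 (CD8) for C269, 1833 and 1582 for CD8 against CD4 in C269 and CTRL, 1697 for 4T1 against CD4, and 19, 75 and 617 for C269 effects in CD8 against CD4, 4T1 against CD4 and 4T1 against CD8. Without a low-count filter they were 83 (CD4) and 162 (CD8) for C269, and 6 and 58 for the 4T1 effects against CD4 and CD8. The fit of 30 libraries gave 606 (4T1) and 0 (CD8) for C269. CD8 against CD4 in CTRL gave 2823 genes and 7 receptors in a fit of both groups alone. In the fit of 20 libraries, added after seeing the data, it gave 1685 genes and 5 receptors in CTRL and 1857 genes in C269. The averaged difference, also added, gave 370 genes and 3 receptors without a filter and 81 genes with DESeq2. Without libraries 9 and 10, 0 genes were called for the 4T1 effect against CD4, and 4T1 differences turned to 0.43 (Tnfrsf9) and 0.30 (Tnfrsf1b).

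Leaving out 1 library, genes called ran from 0 to 10 (C269 in CD4), 0 to 1 (C269 in CD8), 802 to 1230 (CD8 against CD4 in C269), 564 to 873 (the same in CTRL), 426 to 941 (4T1 against CD4), 0 to 1, 0 to 16 and 1 to 220 (C269 effects in CD8 against CD4, 4T1 against CD4 and 4T1 against CD8) and 2 to 32 (averaged). Differences that changed sign ran from -1.22 to 0.016 (Tnfrsf9, C269 in 4T1), -0.12 to 0.26 (Cd40lg, C269 in CD4), -0.062 to 0.14 (Cd28, C269 in CD8), -0.64 to 0.047 (Tnfrsf9) and -0.046 to 0.26 (Tnfrsf1b) for CD8 against CD4 in C269, -0.20 to 0.15 (Tnfrsf9, the same in CTRL) and -0.56 to 0.25 (Cd40lg, averaged). Tnfrsf9 in CD8 against CD4 CTRL was -0.0031 with RLE, -0.0030 with DESeq2 and -0.0014 in the fit of 20 libraries, and averaged Cd40lg was 0.0068 with RLE and 0.028 with DESeq2. The causes were not tested. Low counts limit Cd40lg in CD8 and most receptors in 4T1 libraries.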
